A study of Mus musculus with 4 samples.

Results

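Smooth muscle contractile genes were followed in cultured mesenchymal cells of the mouse whisker follicle. The set holds 10 genes that build the actin-myosin apparatus of smooth muscle, namely Acta2, Actg2, Tagln, Cnn1, Myh11, Myl9, Des, Tpm1, Tpm2 and Lmod1. They were found by symbol among the 51826 rows of the count table, each in 1 row, and all are protein-coding. Of these, 9 had a mean of at least 10 counts over the libraries and were compared with the 16734 genes that met the same minimum, and Des, with at most 11 counts, did not.

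Cells of the dermal papilla (DPCs) and of the dermal sheath (DSCs) came from vibrissal follicles of EGFP-transgenic C57BL/6J mice aged 5 to 6 weeks, and the labels give the genotype as WT. DPCs were grown from collagenase-treated hair bulbs, and DSCs from the sheath after dispase and collagenase, both in medium with fetal bovine serum. The design sets low-passage cells (passage 3) against high-passage cells (passage 9) of both types. Each of the 4 groups was 1 library, with no replicates and no statement of how many animals it came from. So no difference below has a replicate check, no p-value is given, and a change with passage cannot be told apart from a difference between individual cultures or library preparations.

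In smooth muscle, phosphorylation of the myosin light chain lets myosin pull on actin filaments, while tropomyosin, calponin and transgelin bind along the filaments and leiomodin starts new ones. Many of these genes are driven by serum response factor (SRF) together with myocardin or a myocardin-related partner, through a promoter element called the CArG box. The dermal sheath is the contractile layer of the hair follicle, and Acta2, the gene of alpha smooth muscle actin, is commonly used to mark it.

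Promoter sequence was looked at for this element and for the MCAT element, which TEAD factors bind. RefSeq promoter windows on GRCm38.p6 were at hand for 7 of the 10 genes, and the 250 bases before each start were searched. No window was at hand for Actg2, Tagln and Myh11, so their promoters were not searched. A CArG box was taken as CC, then 6 bases of A or T, then GG, a pattern that reads the same way on both strands. It stood before Myl9 only, which is 1 of 7 genes, against 1.467% of 32851 promoters. With 1 central base other than A or T allowed, it stood before Myl9 and Acta2, against 8.593% of promoters. The MCAT element, CATTCC on either strand, stood before Acta2, Lmod1 and Tpm1, which is 3 of 7, against 12.642%. None of the sites overlapped another. The sites follow on the strand of the gene with 8 bases on each side, because these are the letters the search rests on, and capitals mark the element. All MCAT sites lie on the opposite strand and so read GGAATG here.
Acta2 CArG-type site, chr19:34255440-34255465, minus strand: gctgaggtCCCTATATGGttgtgtta
Acta2 CArG-type site, chr19:34255390-34255415, minus strand: tctttgctCCTTGTTTGGgaagcgag
Myl9 CArG box, chr2:156775295-156775320, plus strand: agcagaggCCTAATAAGGccgggctg
Myl9 CArG-type site, chr2:156775357-156775382, plus strand: ttcttctgCCTTGTAAGGccgggcgg
Acta2 MCAT element, chr19:34255506-34255527, minus strand: agaacagaGGAATGcagtggaa
Lmod1 MCAT element, chr1:135324675-135324696, plus strand: gattccctGGAATGtcctcaag
Tpm1 MCAT element, chr9:67049256-67049277, minus strand: tgtcctaaGGAATGcggtcgcc
Counted back from the RefSeq start, the Acta2 CArG-type sites began 84 and 34 bases upstream and those of Myl9 161 and 99 bases upstream. The GENCODE M21 models of Acta2 and Tpm1 start further upstream than the RefSeq ones, so their sites fall in a first exon there. These matches describe the letters and no binding was measured.

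The libraries held between 34981284 and 47604059 counts and between 22230 and 23548 genes with a count. Of the genes with 2 to 9 counts, between 64.5% and 68% had an even count, as arises when the mates of a pair count separately, so intervals were also computed on halved counts. Among dermal papilla markers, Sox2 had 1677 counts in DPCs at passage 3 and 1491 at passage 9, against 269 and 178 in DSCs, whereas Wif1 had 0 in every library and Corin at most 10. Lef1 and Crabp1 were lower in DSCs at passage 3, like Sox2, but not at passage 9. Vcan, and Alpl with at most 23 counts, were higher in DSCs at passage 3 and lower at passage 9. Lef1 had 508 and 2 counts in DPCs and 101 and 55 in DSCs, and Crabp1 had 22409 and 14584 in DPCs and 1518 and 20405 in DSCs. The list summed to 910 and 589 CPM in DPCs and 508 and 865 CPM in DSCs. At passage 3, 2 of its 9 tested genes were at least 2-fold higher in DSCs and 4 lower, against 7.83% and 5.5% of all genes tested. At passage 9, 4 were at least 2-fold higher in DSCs and 2 lower, against 11.3% and 8.87%. At passage 9 the list was thus split, with 5 genes higher in DSCs and 4 lower, Sox2 among the latter, while its sum was higher in DSCs. The keratinocyte genes Krt5, Krt14, Krt15, Cdh1 and Dsg3 had 0 counts in every library, and the summed keratinocyte list reached at most 0.769 CPM, the count scaled to library size. High-passage DPCs stood apart in that 15.5% of all genes tested were 2-fold higher or more, and 15.8% 2-fold lower or more, than at low passage, against 8.47% higher and 6.27% lower in DSCs. Every value for DPC passage and for the cell types at passage 9 rests on that library, while the DSC passage values and the cell types at passage 3 do not.

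Together the 10 genes took 1.368% of all counts in DPCs at passage 3 and 0.4146% at passage 9, and 0.9856% and 0.8407% in DSCs. The highest share was thus in the papilla cells at low passage and the lowest in the same cell type at high passage. Acta2 made up between 46.3% and 56.8% of the summed CPM. Without it, the sum was 6069 CPM in low-passage and 2137 CPM in high-passage DPCs, against 4374 and 4455 CPM in DSCs. The other genes were thus lower in high-passage DPCs as well.

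**Figure D1:**
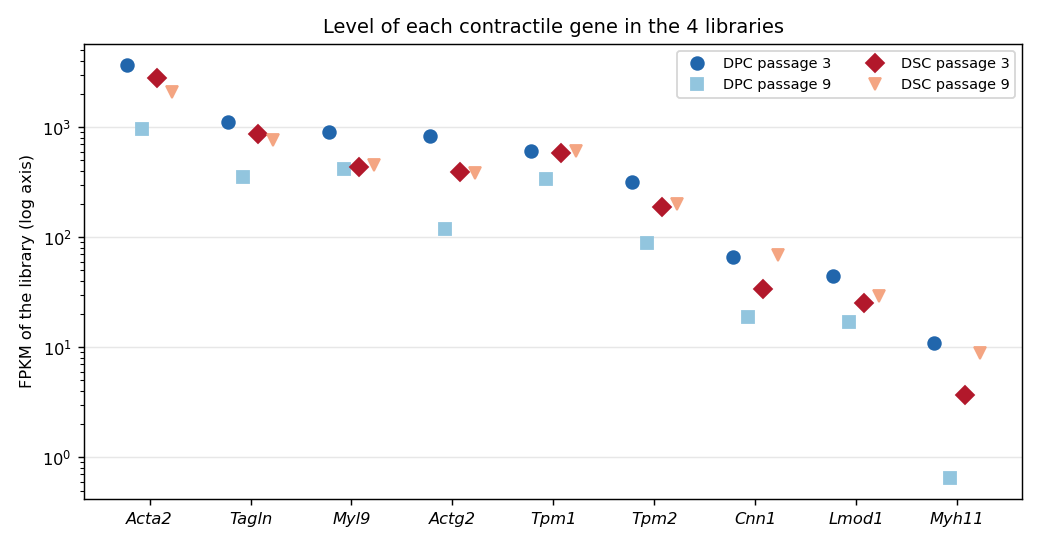
Deposited FPKM (fragments scaled by transcript length and library depth, log axis) of 9 contractile genes in each library, ordered by level in low-passage DPCs; each point is 1 library and there are no error bars because there are no replicates. High-passage DPCs (light blue squares) sit lowest for all 9 genes; Des, at 0 FPKM in both DPC libraries, is not drawn.

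Levels between genes were compared per length, on the deposited FPKM. Acta2 was the highest of the set in every library, at 3692 FPKM in DPCs at passage 3, 964 at passage 9, and 2797 and 2072 FPKM in DSCs. It was the 8th most abundant gene of the whole table in low-passage DPCs and the 33rd in high-passage DPCs. Tagln, Tpm1, Myl9 and Actg2 came next in DSCs at both passages, in that order. In low-passage DPCs the order was Tagln, Myl9, Actg2 and Tpm1, and in high-passage DPCs Actg2 came last of these. Tpm2, Cnn1, Lmod1, Myh11 and Des followed in this order in every library. Myh11 never exceeded 10.9 FPKM.

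The first comparison asked how the contractile genes differed between low-passage and high-passage DPCs. All 9 genes tested were lower at high passage, 8 of them at least 2-fold, where 15.8% of all genes tested were. Actg2 and Myh11 were at least 4-fold lower, as were 4.57% of all genes tested. The median log2 change of the 9 genes was -1.73, against -0.00 over all genes tested. A log2 change is passage 9 over passage 3. Differences are on the log2 CPM scale with a prior count of 2, and the 95% intervals beside them are exact Clopper-Pearson intervals that cover counting error only. Among the 6483 genes with a mean of at least 1000 counts, a minimum chosen after the data were seen and met by all 9, 10.5% were at least 2-fold lower.

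The second comparison put the same question to DSCs and gave another picture. Myh11 was the only gene of the 9 at least 2-fold higher, as were 8.47% of all genes tested, and 0 were at least 2-fold lower, against 6.27%. The median log2 change was 0.05, with 6 genes above 0 and 3 below, against -0.00 over all genes tested. Of the 9 genes, 7 were at least 2-fold lower in DPCs while moving under 2-fold in DSCs, a pattern that 11.5% of all genes tested had. They were Acta2, Actg2, Tagln, Cnn1, Myl9, Tpm2 and Lmod1. For 6 of the 9 genes, the counting interval lay below 0 in DPCs and above 0 in DSCs, as it did for 6.14% of all genes tested, and such intervals are narrower for abundant genes. The difference between the passage changes, DSC minus DPC, had a median of 1.65 over the 9 genes and was not tested, as there is no replicate.

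**Figure D2:**
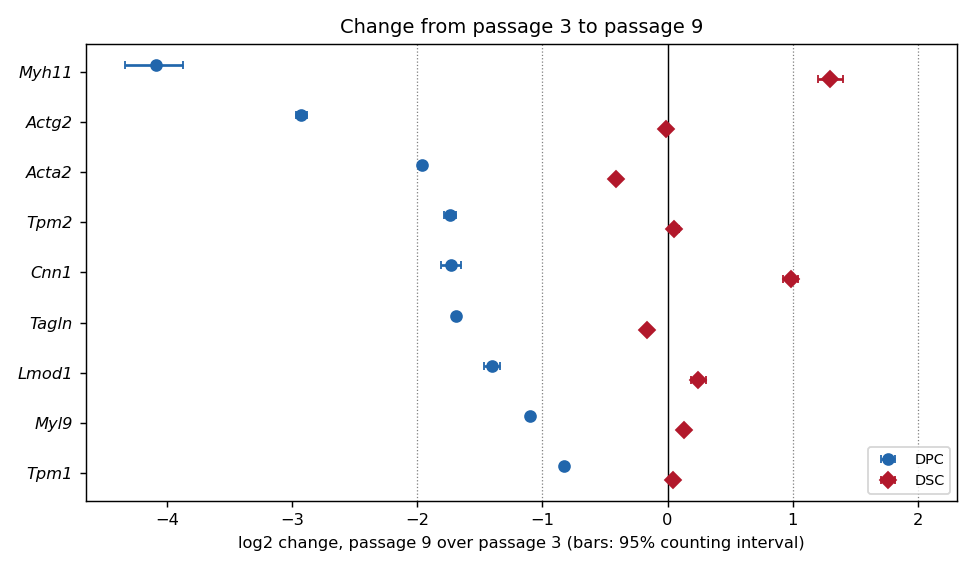
Log2 change from passage 3 to passage 9 for 9 contractile genes in DPCs (blue circles) and DSCs (red diamonds); bars are 95% counting intervals, some narrower than the symbol, and dotted lines mark 2-fold and 4-fold. DPC values run from -4.09 to -0.83 and DSC values from -0.41 to 1.30.

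Further comparisons set DSCs against DPCs at one passage. At passage 3, 8 of the 9 genes were lower in the sheath cells and the median log2 difference was -0.74, against -0.01 over all genes tested. Actg2 and Myh11 were at least 2-fold lower, where 5.5% of all genes tested were, and 0 genes were at least 2-fold higher, against 7.83%. At passage 9, all 9 genes were higher in the sheath cells, with a median of 1.23, against 0.04. Of these, 6 were at least 2-fold higher, against 11.3% of all genes tested, 0 were at least 2-fold lower, against 8.87%, and Myh11 was over 4-fold higher, as were 4%. Lower in DSCs at passage 3 and higher at passage 9 were 8 of the 9 genes, all but Tpm1, against 25.5% of all genes tested. The comparisons share libraries and are not independent of each other.

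**Figure D3:**
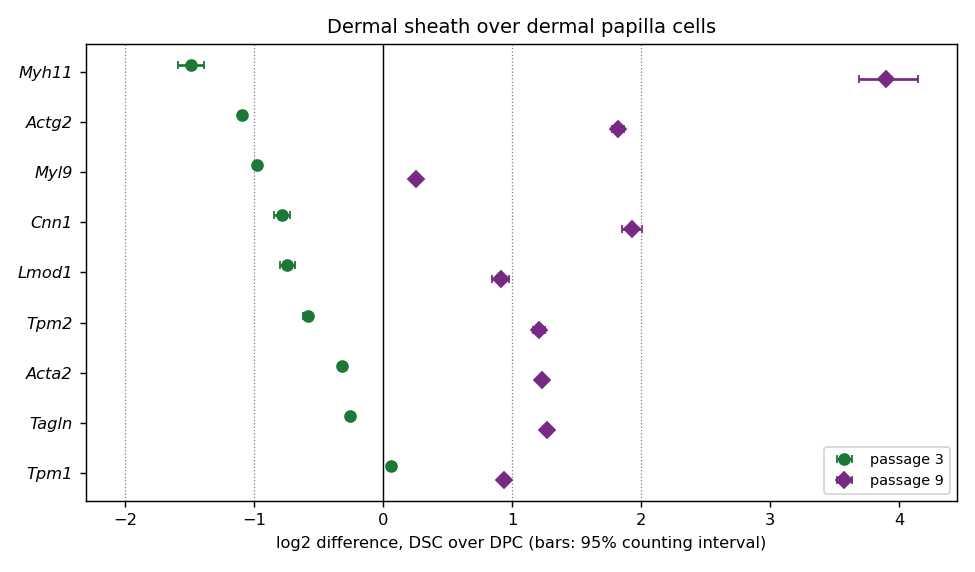
Log2 difference of DSCs over DPCs for 9 contractile genes at passage 3 (green circles) and passage 9 (purple diamonds); bars are 95% counting intervals and dotted lines mark 2-fold and 4-fold. Passage 3 values lie between -1.49 and 0.06 and passage 9 values between 0.25 and 3.90.

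Among the actins, Acta2 (ENSMUSG00000035783, chromosome 19, 34241090 to 34255336, minus strand, in the GRCm38 positions of the table) encodes alpha smooth muscle actin, the main actin of vascular smooth muscle. It had 262118 counts in DPCs at passage 3 and 67135 at passage 9, and 217199 and 197315 in DSCs. High-passage DPCs were thus alone at the low end. The log2 change was -1.96 (-1.98 to -1.95) in DPCs, a 3.90-fold lower level, and -0.41 (-0.42 to -0.40) in DSCs. The DSC over DPC log2 difference was -0.32 at passage 3, and DSCs were 2.35-fold higher at passage 9.

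Actg2 (ENSMUSG00000059430, chromosome 6, 83512905 to 83536265, minus strand) encodes the gamma actin of enteric smooth muscle. Its counts were 39000 and 5129 in DPCs (passage 3, then 9) and 18880 and 22627 in DSCs. DPCs held both the highest and the lowest value of the 4 libraries. The log2 change was -2.93 (-2.97 to -2.88) in DPCs, while in DSCs it was -0.01 with an interval of -0.04 to 0.02 that includes 0. At passage 9 DSCs were 3.53-fold higher than DPCs.

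Actin isoforms differed in their proportions. In FPKM, Acta2 was 4.42 times Actg2 in low-passage DPCs and 8.06 times in high-passage DPCs, and 7.11 and 5.43 times in DSCs. Acta2 held 57.7% of the summed actin FPKM in low-passage DPCs and 45.3% in high-passage DPCs, against 58.4% and 53.6% in DSCs. The cytoplasmic actins Actb and Actg1, found in nearly all cells, differed less than the smooth muscle actins in DPCs, with log2 changes of -0.80 and -0.90. Acta1, the skeletal muscle actin, had 1495 counts in low-passage DPCs and 13 in high-passage DPCs, against 1837 and 1083 in DSCs. Actc1, the cardiac actin, had 0 counts in every library. How reads shared between actins were assigned is not given in the sources used here. Of the 50-base windows of Acta2 transcripts, 0.326% also occurred in another gene.

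**Figure D4:**
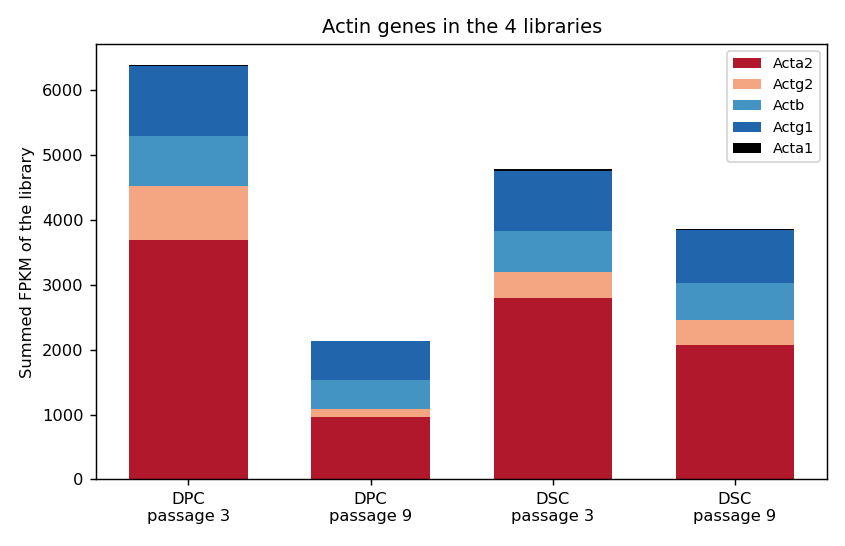
FPKM of the actin genes stacked by library, with the smooth muscle actins Acta2 and Actg2 in red tones, the cytoplasmic Actb and Actg1 in blue and the skeletal Acta1 in black (Actc1 was at 0). The stack is 6394 FPKM in low-passage DPCs and 2130 in high-passage DPCs, against 4789 and 3866 in DSCs, and the red part is smallest in high-passage DPCs.

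Among the myosins, Myh11 (ENSMUSG00000018830, chromosome 16, 14194527 to 14291408, minus strand), the smooth muscle myosin heavy chain, differed most of all members. Counts were 2882 in DPCs at passage 3 and 168 at passage 9, and 1063 and 3160 in DSCs. The low-passage papilla library and the high-passage sheath library were the high ones. The log2 change was -4.09 (-4.33 to -3.88) in DPCs, a 17.0-fold lower level, and 1.30 (1.20 to 1.40) in DSCs. At passage 9, DSCs were 14.9-fold higher than DPCs, and at passage 3 they were 2.80-fold lower. On FPKM with a pseudocount of 1, the log2 values were -2.85 for DPC passage and 2.59 between the cell types at passage 9. Of its 50-base windows 0.34% are shared, with the nonmuscle heavy chains Myh9 and Myh10. Myh11 was a small part of the heavy chain FPKM, at 3.27% and 0.309% in DPCs and 1.27% and 3.44% in DSCs, while Myh9 held between 80.6% and 90.0%.

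Myl9 (ENSMUSG00000067818, chromosome 2, 156775420 to 156781658, plus strand) encodes the regulatory light chain whose phosphorylation triggers contraction. It had 38248 and 17873 counts in DPCs and 20060 and 26594 in DSCs. Low-passage DPCs were high and the other libraries lay close together. The log2 change was -1.10 (-1.12 to -1.07) in DPCs and 0.14 (0.11 to 0.16) in DSCs. At passage 9, the DSC over DPC difference of 0.25 was the smallest of the set, and at passage 3 it was -0.98.

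Tagln (ENSMUSG00000032085, chromosome 9, 45929619 to 45936058, minus strand), also called SM22 alpha, encodes an actin-binding protein of smooth muscle and is an early marker of the lineage. It had 69654 and 21597 counts in DPCs and 60254 and 65077 in DSCs. Only the high-passage DPC library was low. Its log2 change was -1.69 (-1.71 to -1.67) in DPCs and -0.16 (-0.18 to -0.14) in DSCs, and DSCs were 2.41-fold higher at passage 9. Exons of Pcsk7 and Gm48529 overlap those of Tagln on the other strand, and whether counting used strand is not given in the sources used here.

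Cnn1 (ENSMUSG00000001349, chromosome 9, 22099216 to 22109630, plus strand) encodes calponin, which restrains myosin on the actin filament. It had 5576 and 1683 counts in DPCs and 3353 and 8001 in DSCs. The cell types moved in opposite directions, with a log2 change of -1.73 (-1.81 to -1.65) in DPCs and 0.98 (0.92 to 1.04) in DSCs. The DSC value lay just under 2-fold, and its interval spans that line. At passage 9, DSCs were 3.80-fold higher. In FPKM, Cnn1 was 11.7% and 4.66% of the calponin family in DPCs and 7.80% and 13.8% in DSCs, the remainder being the more broadly expressed Cnn2 and Cnn3.

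The tropomyosins, which lie along actin and control access of myosin, differed from each other. Tpm1 (ENSMUSG00000032366, chromosome 9, 67022590 to 67049406, minus strand) had 42553 and 23914 counts in DPCs and 45830 and 57123 in DSCs. It was the one gene of the 9 that moved under 2-fold in DPCs, with a log2 change of -0.83 (-0.85 to -0.81), and it changed by 0.05 (0.03 to 0.06) in DSCs. Its difference between the cell types at passage 3, 0.06, changed sign with the scaling (-0.05 to 0.07). Tpm2 (ENSMUSG00000028464, chromosome 4, 43514711 to 43523765, minus strand) had 16237 and 4869 counts in DPCs and 11216 and 14035 in DSCs. The log2 change was -1.74 (-1.78 to -1.69) in DPCs and 0.05 (0.02 to 0.09) in DSCs. Tpm2 was 18.8% of tropomyosin FPKM in low-passage DPCs and 8.36% in high-passage DPCs, against 13.8% and 15.4% in DSCs. Tpm1 is spliced into muscle and nonmuscle forms, which a count per gene does not separate.

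Lmod1 (ENSMUSG00000048096, chromosome 1, 135324807 to 135368065, plus strand), the leiomodin of smooth muscle, had 7042 and 2659 counts in DPCs and 4357 and 6244 in DSCs. The log2 change was -1.40 (-1.47 to -1.34) in DPCs and 0.25 (0.19 to 0.30) in DSCs. DSCs were 1.88-fold higher than DPCs at passage 9.

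Des (ENSMUSG00000026208, chromosome 1, 75360329 to 75368579, plus strand), the gene of the muscle intermediate filament desmin, had 0 counts in both DPC libraries and 4 and 11 in DSCs at passage 3 and 9. A count of 0 allows up to 3 counts, or 0.0823 CPM in either DPC library. The ratio of high-passage to low-passage DSCs was 2.28, with an interval on the log2 scale of -0.57 to 3.29. Against a floor of 3 counts in high-passage DPCs, high-passage DSCs were 2.93-fold higher, a value that leaves out the counting error of the 11. With that error the interval of the difference began at 1.01 on the log2 scale, and on halved counts it includes 0. Desmin RNA was therefore near the limit of detection while the actins of the same apparatus were among the most abundant RNAs.

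The remaining contractile apparatus was read from a list of 30 further genes, of which 27 were tested. In DPCs, 11 were at least 2-fold lower and 3 were 2-fold higher or more with passage, against 15.8% and 15.5% of all genes tested, with a median of -0.67. In DSCs 2 were lower and 4 higher, against 6.27% and 8.47%, with a median of 0.02. Mylk, the kinase that phosphorylates the light chain, had 12147 and 1680 counts in DPCs and 9620 and 20094 in DSCs, a log2 change of -2.85 and 0.79. Synpo2, an actin-bundling protein, had 1646 and 131 counts in DPCs and 751 and 627 in DSCs. The abundant Flna and Vcl, which link actin to the membrane, were at -0.67 and -0.65 in DPCs, while Cald1, caldesmon, was at 0.16.

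Not all of that list was lower. Itga8, an integrin subunit found in smooth muscle and other mesenchyme, had 6837 and 34714 counts in DPCs and 1674 and 23287 in DSCs, so it was higher at high passage in both, with log2 changes of 2.34 and 3.53. Pgm5, a protein of adherens-type junctions in muscle, also was higher in both, by 1.59 and 3.39. Pdlim3 was at 134 and 244 counts in DPCs and 20 and 8 in DSCs. Synm, an intermediate filament protein, was at 92 and 73 counts in DPCs and 581 and 303 in DSCs.

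Nonmuscle relatives of the set had a median closer to 0 in DPCs, at -0.55, and further from 0 in DSCs, at -0.27. Of 16 tested paralogs, 2 were at least 2-fold lower and 1 higher in DPCs, against 15.8% and 15.5% of all genes tested, a share near the background. In DSCs 2 were lower and 0 higher, against 6.27% and 8.47%. The nonmuscle heavy chains differed in sign in DPCs, with Myh9 at -0.83 and Myh10 at 0.34. The light chain Myl6 was at -0.91 in DPCs and 0.17 in DSCs, and Myl12b at -0.04 and 0.42. Cnn2 was at -0.30 and 0.33. Tagln2 was lower at high passage in both cell types, at -2.96 in DPCs and -1.64 in DSCs, further from 0 than Tagln in each, and Tmod2, a filament-capping tropomodulin, was at 1.59 and -0.65. Vimentin (Vim), the filament protein of mesenchymal cells, was at -0.43 in both.

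Regulators and contractile receptors, 21 tested genes, had a median log2 change of 0.05 in DPCs and -0.00 in DSCs. In DPCs 3 were at least 2-fold lower and 2 higher, no more than the 15.8% and 15.5% of all genes tested, and in DSCs 2 were lower and 0 higher, against 6.27% and 8.47%. Srf was at -0.38 and -0.24 in DPCs and DSCs. Myocd, which encodes myocardin, was low throughout, with 53 and 74 counts in DPCs and 108 and 76 in DSCs. Mkl1, a myocardin-related factor, was at 0.05 and 0.51. Mef2a, a transcription factor of muscle genes, was at 1.65 and -0.36, and Klf5 at 0.43 and -1.13.

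Among SRF and YAP targets on that list, Ctgf had 74883 and 18400 counts in DPCs and 127415 and 153580 in DSCs, a log2 change of -2.02 and -0.00, whereas Cyr61 was at 0.26 and 0.35. The endothelin receptor Ednrb, through which endothelin acts on smooth muscle and other cells, had 1104 and 124 counts in DPCs and 141 and 142 in DSCs, and Ednra had at most 158.

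**Figure D5:**
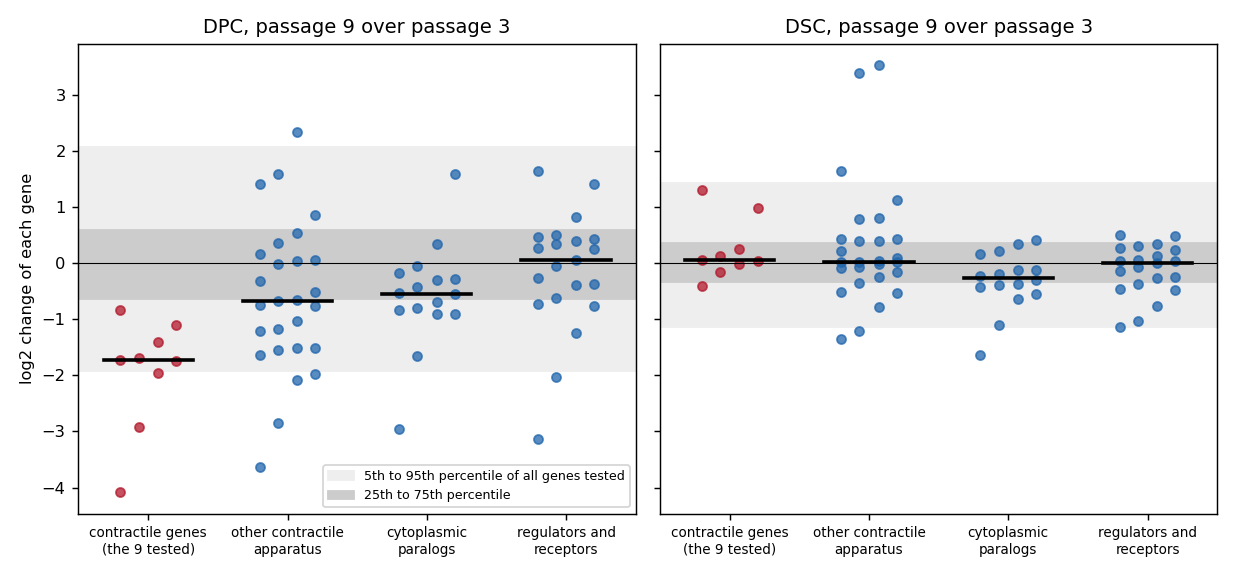
Log2 change from passage 3 to passage 9 of each tested gene in DPCs (left) and DSCs (right) for the 9 contractile genes (red) and 3 related lists (blue: 27, 16 and 21 genes); black lines are medians and grey bands the middle of all 16734 genes tested. In DPCs the medians are -1.73, -0.67, -0.55 and 0.05, and in DSCs 0.05, 0.02, -0.27 and -0.00.

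Markers of other cells moved with some of these values, and their part in the results was not tested. The summed fibroblast list was 15606 CPM in low-passage and 4978 CPM in high-passage DPCs, against 23547 and 21329 CPM in DSCs. All 8 of its genes were detected in at least 1 library. In DPCs 5 of them were at least 2-fold lower and 2 higher, against 15.8% and 15.5% of all genes tested. The lower ones included the collagens Col1a1 and Col3a1 at -2.61 and -3.04, and the higher ones Pdgfra at 1.38. In DSCs 0 were at least 2-fold lower and 4 higher, against 6.27% and 8.47%, with a median of 0.75, although the sum was not higher. The pericyte list was 1759 and 1092 CPM in DPCs and 2154 and 1432 CPM in DSCs. Kcnj8, Abcc9 and Higd1b, commonly used to mark pericytes, had 0 counts in every library, and Rgs5 had at most 18. On the same list Pdgfrb had between 34988 and 62810 counts and Notch3 between 1319 and 2560. In DPCs 4 of the 7 tested pericyte genes were at least 2-fold lower and 0 higher, against 15.8% and 15.5% of all genes tested. Mcam and Cspg4 were at -2.41 and -3.43, and Notch3 at 0.25. In DSCs 1 was lower, Cspg4 at -1.64, against 6.27%, and 2 were higher, among them Ndufa4l2 at 1.68, against 8.47%.

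Skeletal and cardiac muscle genes summed to 48.2 and 10.2 CPM in DPCs and 54.9 and 36.1 CPM in DSCs, most of it Acta1 except in high-passage DPCs, where Acta1 was 0.357 CPM. Of these 24 genes, 9 had 0 counts in every library, among them Myod1, Pax7 and Ckm. Immune genes summed to between 9.80 and 37.1 CPM, endothelial genes to between 1.30 and 8.14 CPM, and melanocyte and Schwann cell genes to between 18.1 and 31.5 CPM. In bulk RNA, fewer cells of a type and less RNA per cell cannot be told apart.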

How the data were processed

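RNA was sequenced from 4 cultures, 1 library per group (paired-end, poly-T selected per the study's methods). The authors deposited raw counts per gene, as whole numbers without normalization, and FPKM values that they normalized for transcript length and depth. The submitters' processing notes name Bowtie 0.12.2, mm8 and mm9 without a role, but 51633 of the 51826 gene IDs were found in GENCODE M21 and 94.1% of these had its GRCm38 position. The positions printed for the genes are those of the table. The counting program and its strand setting are not given in the sources used here.

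Counts were scaled by TMM over all genes in edgeR 4.0.16 (R 4.3.3) and compared as log2 CPM with a prior count of 2. Intervals came from SciPy 1.17.1. FPKM served to compare genes. Groups were taken from the labels. With 1 library per group no test was run. The scaling step was tested on simulated data. Calls were set at 2-fold and 4-fold, the latter being the study's threshold.

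All 10 genes were named. From related lists, the 3 most abundant genes, the 2 largest rises and 2 largest falls per passage comparison (mean count of at least 100) and Srf, Myocd, Mylk, Actb, Actg1, Acta1 and Actc1 were named, except for some that are not reported here. Marker genes and further family members given beside these were chosen after their values were seen. The members and lists were chosen with earlier results of these data known. Alternatives were DESeq2 1.42.0 size factors, upper-quartile and total-count scaling, other count minimums, FPKM with pseudocounts of 0.1 and 1, halved counts and TMM over the genes tested.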

Additional observations from a re-analysis of the deposited data

Results flagged for a closer look

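For 6 of the 9 genes tested, the passage change went one way in DPCs and the other way in DSCs, with counting intervals on opposite sides of 0. Of all genes tested, 6.14% were likewise below 0 in DPCs and above 0 in DSCs, and such intervals are narrower for abundant genes. The difference on the log2 scale, DSC minus DPC, was 5.38 for Myh11, 2.71 for Cnn1, 1.79 for Tpm2, 1.65 for Lmod1, 1.23 for Myl9 and 0.88 for Tpm1. For Myh11 it was 3.94 on FPKM with a pseudocount of 1. In each case the change was below 0 in DPCs and above 0 in DSCs. None of these differences was tested, since each group was 1 library. For Tpm1, Tpm2, Myl9 and Lmod1 the DSC change was at most 0.25, so most of the difference lay in DPCs. Tpm1 and Tpm2 were nearly unchanged in DSCs, at a 1.03-fold and 1.04-fold level. For Myh11 and Cnn1 the DSC change was 1.30 and 0.98.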

How the results depend on the processing

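Over the alternatives run, 200 of 204 counts of members past a fold or an interval stayed within 1.5 times their value, and no called change of a single gene reversed. Under DESeq2 size factors, and on FPKM with a pseudocount of 0.1, 2 genes instead of 1 were at least 2-fold higher with passage in DSCs, because Cnn1 reached 1.02 at most. With no minimum count, Des entered, and 1 gene instead of 0 was at least 2-fold higher in DSCs at passage 3 and 2 instead of 1 at least 4-fold higher at passage 9. Of 360 single changes, 231 stayed within their counting interval and call, and 129 moved. Of 50 medians, 36 stayed within the median of the interval bounds, and that of DPC passage lay between -1.81 and -1.65. The value of Myh11 moved most, to -2.85 in DPCs, 2.59 between the cell types at passage 9 and 3.94 for the difference between the passage changes, on FPKM with a pseudocount of 1. Uncalled values that changed sign were Actg2 in DSCs (-0.04 to 0.02) and Tpm1 at passage 3 (-0.05 to 0.07). Scaling to total counts shifted the median of all genes by -0.12 between the cell types at passage 9. TMM over the genes tested, and a minimum of 1000 counts, were chosen after seeing the data. No paired analysis was possible because each group has 1 library.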
